A study of Mus musculus with 6 samples.

Results

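The immunoglobulin gene segments were taken as all rows of the deposited expression table whose biotype begins with IG_, which gave 177 of the 30707 genes in the table. They comprised 88 rows of the heavy-chain locus on chromosome 12, 81 of the kappa light-chain locus on chromosome 6, 7 of the lambda light-chain locus on chromosome 16, and Gm20730, a leader-variable row on chromosome 6 outside the kappa locus. By class there were 155 variable (V) segments, of which 2 are annotated as pseudogenes, 10 joining (J) segments and 11 constant (C) genes. The rows came from RNA sequencing of mouse hippocampus, with 3 samples infected with a control virus and 3 infected with a virus that knocks down SFRS8, the older name of the splicing regulator Sfswap. Every sample therefore carried a virus. The strain, age and sex of the mice, the design of the viruses, the time after infection and the number of animals behind each library are not given by the sources used here. Each p-value therefore measures only spread among these 6 samples, and that spread may be technical.

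An antibody is built from heavy and light chains whose genes are assembled in each developing B cell by joining a V segment to a J segment, with a short diversity segment between them in the heavy chain, and by splicing the product to a constant gene. The constant gene sets the isotype: mu and delta (IgM and IgD) are used first, and switch recombination later brings gamma, alpha or epsilon into use. Descendants of one B cell share a rearrangement, and plasma cells, the antibody-secreting end stage, hold very large amounts of its mRNA. Few such cells live in the healthy brain, mostly in the meninges and choroid plexus at its borders.

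The table gives FPKM, fragments per kilobase of exon scaled by library size. For each of the 177 rows the values were whole multiples of what 1 read is worth, within 0.01 reads, so read numbers are given beside FPKM. The libraries held 16622948 to 18097343 reads. Sfswap stood at 16.7, 18.5 and 19.2 FPKM in controls 1 to 3, against 9.79, 11.3 and 9.58 in knockdown samples 1 to 3, which is the direction the labels give. The hippocampal neuron markers Camk2a and Prox1 were present in all 6 samples, at 452 to 648 and 11.7 to 18.0 FPKM. The summed level of 5 such markers was 978 to 1005 FPKM in controls and 729 to 858 in knockdown samples.

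The reference sequences show how close some V segments are to their nearest relatives. The coding ends below run from 15 bases before the codon of the last cysteine, shown in capitals, to the end of the germline V segment, where a J segment is joined. Shown are kappa segments that ranked high in a sample, with Igkv1-110 and its relative Igkv1-117. The ends were chosen because this stretch holds the germline part of the third complementarity-determining region, the most variable part of the antigen-binding site. They are on the coding strand, 5′ to 3′, and were read from GENCODE M21 transcripts (mm10, chromosome 6).
Igkv14-111: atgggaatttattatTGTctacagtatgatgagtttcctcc
Igkv4-53: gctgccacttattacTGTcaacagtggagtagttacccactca
Igkv8-24: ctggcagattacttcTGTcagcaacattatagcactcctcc
Igkv16-104: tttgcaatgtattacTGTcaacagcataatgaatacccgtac
Igkv11-125: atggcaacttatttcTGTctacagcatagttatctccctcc
Igkv3-2: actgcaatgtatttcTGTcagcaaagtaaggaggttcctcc
Igkv1-110: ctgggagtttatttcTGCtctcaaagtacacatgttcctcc
Igkv1-117: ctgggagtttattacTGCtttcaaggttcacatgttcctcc
The last pair are the closest relatives among these: Igkv1-110 and Igkv1-117 have 97.2% identity over the coding sequence. Igkv16-104 is 72.8% identical to its nearest relative, Igkv14-111 is 91.5% identical to Igkv14-126, and Igkv8-24 is 91.0% identical to Igkv8-30.

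The share of short sequence stretches also found in other genes differed between the segments too. No stretch of 50 bases of Igkv14-111, Igkv16-104, Igkv8-24 or Igkv11-125 occurs in the transcripts of another gene. For Igkv1-110, 50.9% of its stretches of 50 bases and 16.2% of those of 100 bases occur elsewhere, for Igkv4-53 the shares are 39.6% and 7.46%, and for Ighv1-50 they are 52.2% and 13.1%. No stretch of 150 bases was shared by any constant gene or any leading segment examined. The read length is not given by the sources used here, so values of closely related segments are uncertain. The heavy-chain and kappa segments that led knockdown sample 2 are shown by the last 180 coding bases, because each carried more reads there than any other segment of its locus in any sample.
Ighv1-39: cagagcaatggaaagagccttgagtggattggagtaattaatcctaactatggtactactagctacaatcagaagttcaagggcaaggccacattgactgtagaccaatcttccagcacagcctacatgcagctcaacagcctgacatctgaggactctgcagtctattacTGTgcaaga
Igkv14-111: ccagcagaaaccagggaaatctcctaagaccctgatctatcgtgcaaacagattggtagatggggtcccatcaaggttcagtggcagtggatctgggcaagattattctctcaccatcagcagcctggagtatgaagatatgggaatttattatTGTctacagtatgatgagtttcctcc
These are germline sequences of the reference strain. The rearranged and possibly mutated sequences in the samples were not analysed here.

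Immunoglobulin reads varied over a wide range within each group and were most abundant in knockdown samples 1 and 2. All 177 rows together held 7897, 2366 and 539 reads in control samples 1 to 3, which is 458, 131 and 29.995 RPM, reads per 1000000 reads of the library. In knockdown samples 1 to 3 they held 52532, 65601 and 6701 reads, or 2963, 3946 and 384 RPM. The groups overlapped, since knockdown sample 3 lay below control sample 1, and the highest value was 15.3 times the lowest among controls and 10.3 times the lowest among knockdown samples. In a bulk sample, more cells of a type and more RNA per cell cannot be told apart.

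The heavy and kappa loci differed by similar amounts. Heavy-locus reads were 123 ± 122 RPM in controls and 1459 ± 1152 in knockdown samples (mean ± SD, n = 3 each), a ratio of group means of 11.9. Kappa-locus reads were 82.1 ± 100.9 and 960 ± 693 RPM, a ratio of 11.7. Lambda-locus reads were far fewer, at 1.41 ± 1.31 and 12.1 ± 12.6 RPM, a ratio of 8.57. In each locus the SD was close to the mean or above it in at least 1 group, and in each the groups overlapped. No test was made of these sums, because the rows were chosen together. The ratios rest on few samples. Without control sample 1 they were 26.6, 38.9 and 16.2 for heavy, kappa and lambda, without knockdown sample 2 the heavy ratio was 7.68, and without knockdown sample 1 the lambda ratio was 3.61. Ratios of group medians were 19.0 for heavy and 30.4 for kappa.

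**Figure D1:**
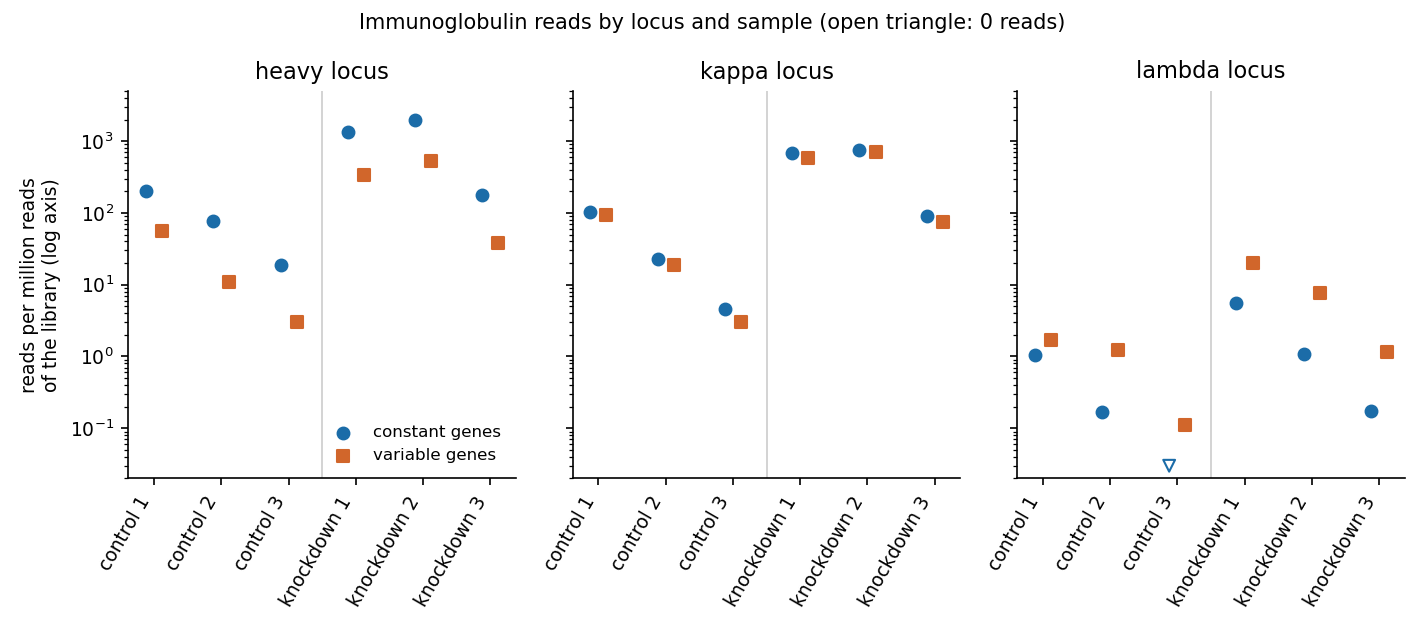
RPM (reads per 1000000 reads of the library, log axis) on constant genes (circles) and variable segments (squares) of the heavy, kappa and lambda loci in each of the 6 samples, with an open triangle for 0 reads. Knockdown samples 1 and 2 lie above the other samples, though for lambda constant genes knockdown sample 2 (1.08 RPM) is barely above control sample 1 (1.04). Knockdown sample 3 lies near control sample 1 except for lambda constant genes, where it is at 0.172 RPM, near control sample 2.

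The kappa constant gene Igkc, the row with the highest FPKM in each of the 6 samples, was high and low in the same samples. Igkc (mm10 chromosome 6, 70726435 to 70726966, plus strand) stood at 196, 42.8 and 8.58 FPKM in controls 1 to 3, against 1269, 1401 and 172 in knockdown samples 1 to 3. Knockdown sample 3 lay between control samples 1 and 2, so the groups overlapped. On the log2(FPKM + 1) scale knockdown samples were higher by 3.96 (SE 1.21). The limma adjusted p over 14012 genes was 0.117, so Igkc did not pass. A long noncoding gene, Gm30211, spans Igkc and the kappa J segments on the same strand, but shares no exon base with them and held at most 6 reads.

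Light-chain reads came mainly from kappa in every sample. Lambda reads were 1.37%, 3.21% and 1.43% of light-chain reads in controls 1 to 3, and 2.01%, 0.608% and 0.787% in knockdown samples 1 to 3. The exact binomial 95% interval was 1.00% to 1.81% in control sample 1 and 0.514% to 0.714% in knockdown sample 2, while in control sample 3, with 2 lambda reads, it ran from 0.173% to 5.07%. These intervals cover counting error only. Iglv1 had 1.34, 0.424 and 0.285 FPKM in controls and 15.6, 15.1 and 1.47 in knockdown samples. The lowest knockdown value of Iglv1 lay just above the highest control, and the adjusted p in limma was 0.111. Iglv3 had 20, 19 and 0 reads in controls and 248, 28 and 4 in knockdown samples, and was the leading lambda V segment in control samples 1 and 2 and knockdown sample 1, with Iglv1 leading in the other 3 samples. Iglv2 had 0 reads in each control and 5, 2 and 6. Iglv2 is 96.9% identical to Iglv1 and its few reads are uncertain. Among the lambda constant genes, Iglc2 was highest in knockdown sample 1, at 7.19 FPKM. Iglc1 reached 1.74 FPKM and Iglc3 0.873 there, and no lambda constant read was found in control sample 3.

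The isotype makeup differed from sample to sample. Ighm, the constant gene of IgM (chromosome 12, 113418558 to 113422730, minus strand), had 18.5, 20.8 and 4.72 FPKM in controls 1 to 3, and 167, 51.8 and 65.1 in knockdown samples 1 to 3. The lowest knockdown sample was above the highest control. The log2 difference was 2.64 (SE 0.61) with a limma adjusted p of 0.0703. By exact permutation (two-sided) p was 0.1, the lowest value possible with 3 samples a group. The adjusted p ran from 0.0355 to 0.167 over 17 alternatives. Ighm was called in 3 of them, including the same fit at a looser threshold of 0.1.

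Igha, the constant gene of IgA, the isotype typical of mucosal surfaces, was likewise separated between the groups. It had 7.39, 6.4 and 3.19 FPKM in controls and 56.9, 36.6 and 10.7 in knockdown samples. Its log2 difference was 2.20 (SE 0.57), and the limma adjusted p was 0.0851 (0.0486 to 0.206 over 17 alternatives). It was called in 2 of them, including the same fit at a looser threshold of 0.1. The exact permutation p was again 0.1. Igha and Ighm were the only constant genes without overlap between the groups. Ighd, the constant gene of IgD, which marks mature naive B cells, stood between 0.0297 and 0.349 FPKM in all 6 samples and held 1 to 12 reads. It was highest in control sample 2, and its mean was lower in knockdown samples.

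The gamma genes, which encode the IgG subclasses, were each highest in knockdown sample 1 or 2. Ighg2c, the IgG2 gene of C57BL/6 and related strains, had 56.2, 14.1 and 0.630 FPKM in controls and 249, 462 and 13.5 in knockdown samples. Knockdown sample 3 lay below control sample 2 for this gene (adjusted p = 0.258 in limma). Ighg3 had 1.15, 0 and 0 FPKM in controls and 105, 371 and 0.0457 in knockdown samples, the last being 2 reads. Its fold change thus rests on 2 samples, and it did not pass (adjusted p = 0.206). Ighg2b had 25.5, 0.268 and 0.229 FPKM in controls and 96.7, 42.2 and 3.47 in knockdown samples, so control sample 1 lay above knockdown sample 3 (adjusted p = 0.284). Ighg1 was high in knockdown sample 2 alone, at 44.2 FPKM, against 4.05 in knockdown sample 1 and at most 0.336 in the other samples (adjusted p = 0.267).

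As a share of the summed FPKM of the heavy constant genes, the 4 gamma genes made up 76.2%, 34.7% and 9.69% in controls 1 to 3, and 67.0%, 91.2% and 18.4% in knockdown samples 1 to 3. Ighm led in control samples 2 and 3 and knockdown sample 3, at 49.3%, 53.3% and 70.0%, and Ighg2c led in control sample 1 and knockdown sample 1, at 51.5% and 36.7%. In control sample 3 Igha held 36.0%, on 153 reads. In knockdown sample 2 the leading gene depended on the scale: Ighg2c held 45.8% of FPKM and Ighg3 36.8%, but of the reads Ighg3 held 47.3% and Ighg2c 31.1%. The annotated exons of Ighg2c sum to 1326 bases and those of Ighg3 to 2512, which enters FPKM.

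**Figure D2:**
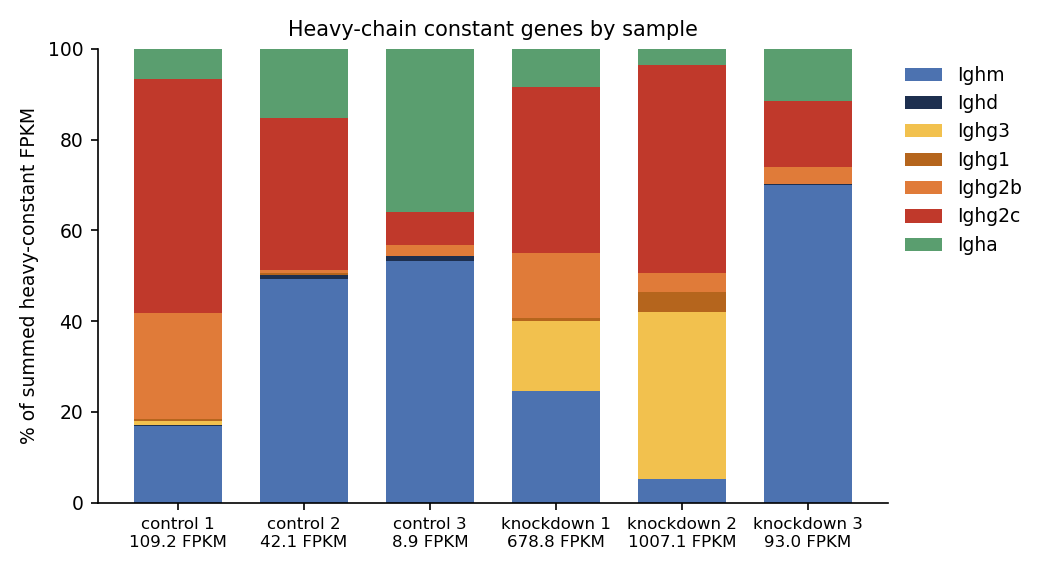
Share of the summed FPKM of the 7 heavy-chain constant genes held by each gene in each sample, with that sum under each bar. Ighm takes 49.3% to 70.0% in control samples 2 and 3 and knockdown sample 3, whereas gamma genes take 67.0% to 91.2% in control sample 1 and knockdown samples 1 and 2.

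A few V segments held most V reads in each sample except control sample 3, and the leading segments were largely different from sample to sample. Of the 155 V segments, 79, 53 and 50 had at least 1 read in controls 1 to 3, and 121, 113 and 77 in knockdown samples 1 to 3. These numbers rest on 2596, 557 and 111 V reads in controls and 16814, 20435 and 1973 in knockdown samples. Reads reached 50% of the total with 3, 3 and 10 segments in controls 1 to 3, and with 5, 2 and 5 in knockdown samples 1 to 3. For 90% of V reads, 17, 20 and 39 segments were needed in controls and 19, 12 and 21 in knockdown samples.

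The concentration was strongest in knockdown sample 2. Igkv14-111 held 6833 of its V reads, or 33.4% (exact binomial 95% interval 32.8% to 34.1%), and Ighv1-39 held 5780, or 28.3%. By locus, Ighv1-39 took 66.2% of heavy V reads and Igkv14-111 took 59.0% of kappa V reads in that sample. Knockdown sample 1 was less concentrated: Igkv4-53 led with 20.1% of all V reads, followed by Igkv6-23 with 10.8% and Ighv1-9 with 7.79%. Knockdown sample 3 was led by Igkv8-24 at 18.1%, Igkv11-125 at 13.4% and Igkv4-53 at 9.78%.

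Control samples 1 and 2 were also each led by a few segments. In control sample 1, Igkv8-24 held 29.9% of V reads, Ighv1-50 18.0% and Igkv3-2 11.7%. In control sample 2, Igkv14-111 held 22.1%, Ighv14-3 17.2% and Igkv2-109 14.9%. In control sample 3 no segment had more than 10 reads, and the first, Ighv5-4, held 9.01% (interval 4.41% to 15.9%).

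The samples differed in segment use at equal depth too. At an equal 111 V reads per sample, the expected number of segments with a read was 23.4 and 26.8 in control samples 1 and 2, 26.3, 19.1 and 27.6 in knockdown samples 1 to 3, and 50 in control sample 3. Knockdown sample 2 thus used the fewest segments and control sample 3 the most. At 557 V reads the expected numbers were 49.99 and 53 in control samples 1 and 2 and 49.9, 38.4 and 53.8 in knockdown samples 1 to 3.

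**Figure D3:**
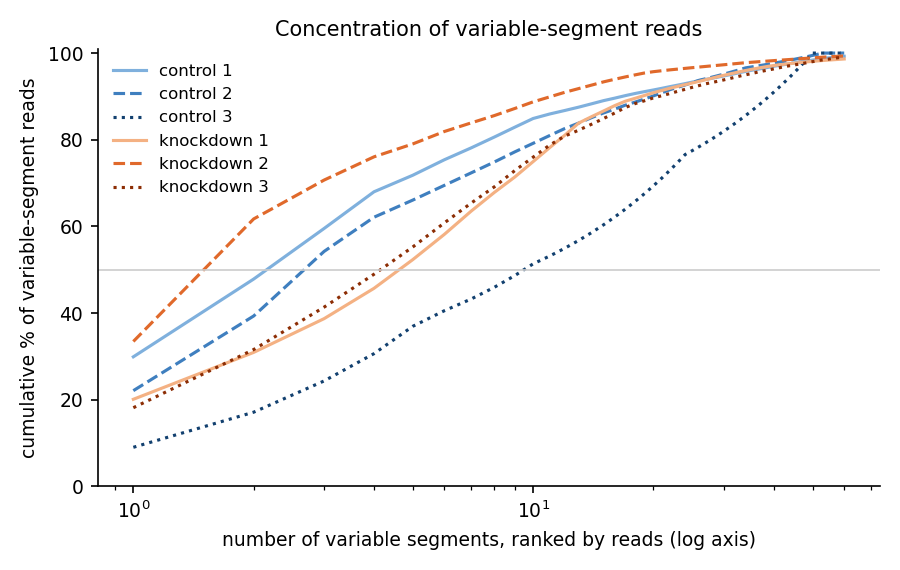
Cumulative share of V reads against the number of V segments, ranked by reads within each sample (log axis), with a grey line at 50%. The curve of knockdown sample 2 rises fastest and crosses 50% at 2 segments, and that of control sample 3, which rests on 111 reads, rises slowest and crosses at 10.

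Some segments had all or nearly all of their reads in 1 sample, also where that sample had few V reads in all. Igkv11-125 had 265 reads, all in knockdown sample 3, and Igkv14-130 had 99, all in control sample 1. Igkv14-111 had 3, 123 and 0 reads in controls 1 to 3, and 11, 6833 and 3 in knockdown samples 1 to 3. This segment was therefore first in control sample 2 and knockdown sample 2 and nearly absent from the other samples.

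Over all loci, knockdown samples 1 and 2 shared more of their leading segments than any other pair of samples, but within the kappa locus they did not. Of the 10 V segments with the most reads, 5 (50% of each list) were common to these samples: Ighv1-39, Ighv1-81, Ighv1-9, Igkv12-44 and Igkv16-104. For heavy segments alone 6 of 10 were shared, and for kappa segments 4 of 10, as many as control samples 2 and 3 or control sample 2 and knockdown sample 2 shared. Other pairs shared at most 3 of 10 over all loci and at most 4 of 10 within the heavy locus. The heavy and kappa lists of control sample 3 end in ties at 1 and 2 reads, so what it shared within a locus is uncertain. Ighv1-81 had 13, 3 and 0 reads in controls and 900, 1097 and 1 in knockdown samples. Ighv1-39 had 7, 0 and 0 reads in controls and 598, 5780 and 0 in knockdown samples. Both were thus high in knockdown samples 1 and 2 only, and knockdown sample 3 was at the level of the controls.

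**Figure D4:**
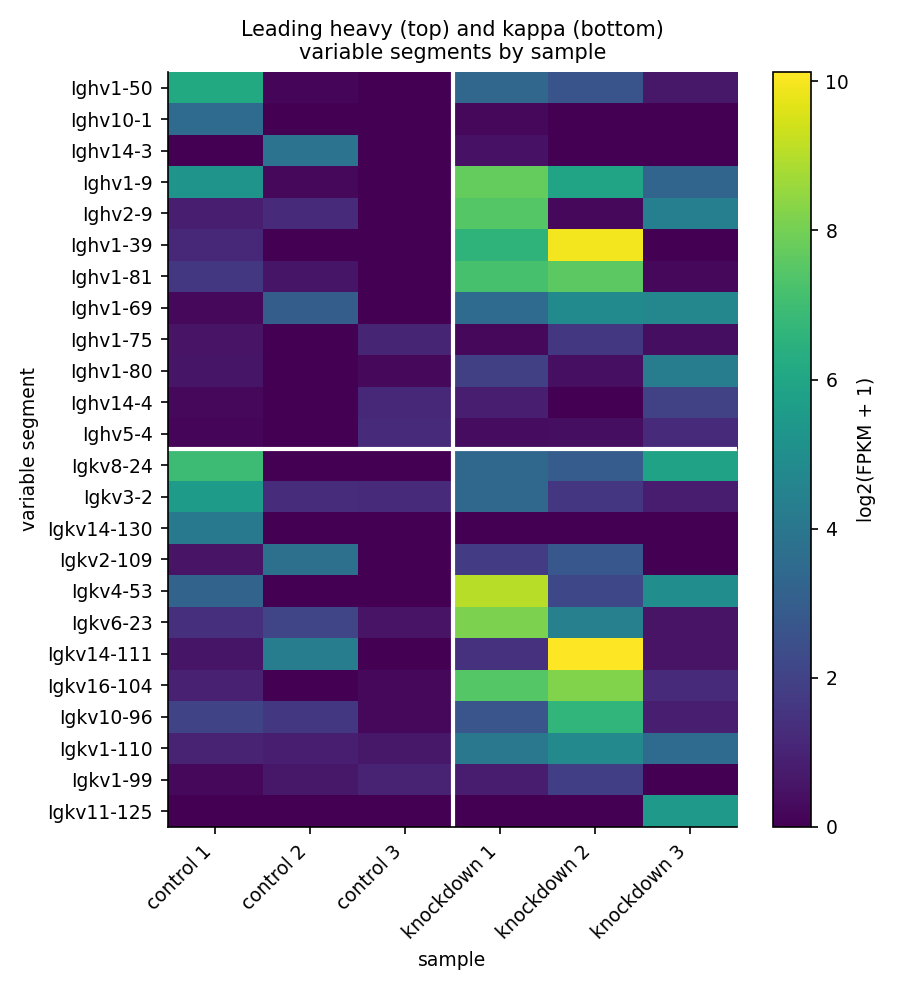
Level as log2(FPKM + 1) of the heavy (upper block) and kappa (lower block) V segments that ranked in the first 3 of their locus in any sample, with Igkv1-110, in the 3 control and 3 knockdown samples. Each sample has its own bright cells, such as Ighv1-39 and Igkv14-111 in knockdown sample 2 and Igkv11-125 in knockdown sample 3, and Igkv1-110 is brighter in each knockdown sample than in any control.

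The V segments were grouped into subgroups of related sequence, of which Ighv1 is the largest, with 42 of the 77 heavy V segments in the table. Most heavy V reads came from Ighv1 in control sample 1 and in each knockdown sample, but not in control samples 2 and 3. Ighv1 held 86.9%, 35.4% and 37.0% of heavy V reads in controls and 69.7%, 92.7% and 59.7% in knockdown samples. Ighv14 led in control sample 2 with 52.8%, nearly all from Ighv14-3. Among kappa subgroups the leader was Igkv8 in control sample 1 (49.3%) and knockdown sample 3 (30.7%), Igkv14 in control sample 2 (36.2%) and knockdown sample 2 (59.1%), and Igkv4 in knockdown sample 1 (38.5%). The leading segments lay across the loci, from Igkv3-2 at 23.5 kb to Igkv14-130 at 2931 kb from the first kappa J segment, and from Ighv5-4 at 167.6 kb to Ighv1-81 at 2490 kb from the first heavy J segment.

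J segments, which are 38 to 100 bases long in the annotation, carried few reads. Together they held 18, 2 and 3 reads in controls and 65, 76 and 5 in knockdown samples. How a fragment that spans a V segment, a J segment and a constant gene was counted is not given by the sources used here. Igkj4 had 1, 2 and 1 reads in controls and 13, 21 and 0 in knockdown samples, the most of the kappa J segments in knockdown samples 1 and 2, followed there by Igkj5 with 16 reads in knockdown sample 2 and 12 in knockdown sample 1. Of the heavy J segments Ighj4 was highest, with 14 and 11 reads in knockdown samples 1 and 2. Igkj3, which does not join productively in the mouse, was assigned 8 and 12 reads there and led the kappa J segments of control sample 1 with 6 of 12 reads, numbers that its likeness to the other kappa J segments leaves uncertain. The coding parts of these J segments in the reference are given because they carry the motif of phenylalanine or tryptophan followed by glycine, any residue and glycine, in capitals, by which functional J segments are recognised, and in Igkj3 no such motif was found in any frame.
Igkj4: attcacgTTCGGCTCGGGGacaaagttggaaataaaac
Igkj5: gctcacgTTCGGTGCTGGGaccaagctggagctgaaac
Igkj3: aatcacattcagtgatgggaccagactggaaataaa
Ighj4: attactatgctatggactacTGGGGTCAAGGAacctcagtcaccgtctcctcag

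The proportion of variable to constant reads varied less across samples for kappa than for the heavy locus. Kappa V reads per Igkc read were 0.886, 0.825 and 0.671 in controls and 0.874, 0.934 and 0.812 in knockdown samples. Heavy V reads per heavy constant read were 0.282, 0.140 and 0.158 in controls and 0.254, 0.267 and 0.210 in knockdown samples. The kappa proportion was lowest in control sample 3 and the heavy proportion in control sample 2, which had fewer immunoglobulin reads than the other samples.

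The comparison of knockdown with control samples gave 1 call among the immunoglobulin rows. Igkv1-110 (chromosome 6, 68270485 to 68271267, plus strand) had 7, 6 and 4 reads in controls 1 to 3, and 110, 176 and 74 in knockdown samples 1 to 3, at 1.01, 0.827 and 0.555 against 15.5, 26.4 and 10.6 FPKM. The samples within each group lay close together for a row of this class and the groups did not overlap. It was higher by 3.28 (SE 0.29) on the log2(FPKM + 1) scale, and its limma adjusted p was 0.0432. The call was lost without control sample 1, 2 or 3 (adjusted p = 0.130, 0.149 and 0.0560) and without knockdown sample 1 (0.0783). Reads of Igkv1-117, its 97.2% identical relative, were 5, 4 and 1 in controls and 15, 7 and 27 in knockdown samples, so it too did not overlap, with an adjusted p of 0.105.

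Of the 177 rows, 81 reached the mean of 1 FPKM that the test required. Over all genes tested, 1.2% were called higher and 0.228% lower, so 1 called row of 81 is near the background. No row was called lower in limma. With limma's voom on the recovered reads 2 rows were called higher and 0 lower, where 4.06% and 0.783% of genes tested were, and with voom on genes with at least 10 reads 2 and 0, where 2.82% and 0.511% were. At an unadjusted p under 0.05, 21 of the 81 rows were higher and 0 lower, where 15.7% of all genes tested were higher. The median log2 difference of the tested rows was 1.66, against 0.02 over all genes tested. Some rows reached 1 FPKM only through knockdown samples, such as Igkv12-44 with 0 reads in each control, which raises this median. With no filter the median was 0.609 over the 177 rows, against 0.0123 over all genes. Knockdown values lay above every control for 28 of the 177 rows (15.8%), where 12.3% of all genes in the table did so. Mean levels were higher in knockdown samples for 152 rows (85.9%), where 55.7% of all genes had a higher mean. Rows of the same sample are not independent of each other here, because a sample with many antibody reads is high in many of them.

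Several abundant segments did not overlap between the groups and yet did not pass. Igkv12-44 had 0 reads in each control and 983, 587 and 13 in knockdown samples (adjusted p = 0.0882 in limma). Igkv16-104 had 6, 0 and 1 reads in controls and 1178, 1832 and 9 in knockdown samples (adjusted p = 0.127), so knockdown sample 3 was just above the controls. Ighv1-69 had 1, 44 and 0 reads in controls and 66, 163 and 150 in knockdown samples (adjusted p = 0.0740), and it shares 97.2% identity with Ighv1-50. Ighv14-2 went the other way, with 1, 7 and 1 reads in controls (0.165, 1.10 and 0.159 FPKM) and 0 in each knockdown sample, and it was the only row of the 177 whose knockdown values were all below the controls, where 7.02% of all genes were so.

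Plasma cell genes differed in how they varied over the samples. Of the 15 found, only Sdc1, Txndc5 and Cd38 were highest in knockdown sample 3. All the others, Jchain and Mzb1 among them, were highest in knockdown sample 1 or 2, where immunoglobulin reads were most abundant. Jchain, the chain that links IgM and IgA into polymers, had 6.48, 3.75 and 0.531 FPKM in controls and 46.0, 61.0 and 9.78 in knockdown samples (adjusted p = 0.0834 in limma). Mzb1, a chaperone of antibody-secreting cells, had 1.47, 0.244 and 0.430 FPKM in controls and 6.79, 9.17 and 0.951 in knockdown samples (adjusted p = 0.154). The order of Jchain over the 6 samples was that of Igkc except that knockdown sample 3 exceeded control sample 1. Of the 15 plasma cell genes found, 10 were tested, 2 were called higher and 0 lower. Over all genes tested, 1.2% were called higher and 0.228% lower. Sdc1, a surface proteoglycan used to mark plasma cells, had 0.365, 0.232 and 0.643 FPKM in controls and 3.14, 2.38 and 3.33 in knockdown samples (adjusted p = 0.0432 in limma). Txndc5, a protein disulfide isomerase of the endoplasmic reticulum, had 12.4, 12.1 and 11.3 FPKM in controls and 16.2, 16.8 and 17.3 in knockdown samples (adjusted p = 0.0447 in limma). Neither overlapped between the groups, and both were highest in knockdown sample 3, which had far fewer immunoglobulin reads than the other knockdown samples. The summed level of the 15 genes was 52.8 to 66.0 FPKM in controls and 77.3 to 160 in knockdown samples. Several of these genes are also expressed outside plasma cells, Xbp1 among them, at 26.7 to 47.6 FPKM.

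Of 15 B cell genes, 2 reached 1 FPKM and 0 were called, where 1.43% of all genes tested were called in either direction. The 15 genes summed to 4.46 to 7.47 FPKM in controls and 7.64 to 12.8 in knockdown samples. Defining B cell markers were low. Ms4a1 had 0, 0 and 0.00899 FPKM in controls and 0.0547, 0.0875 and 0.0371 in knockdown samples. Pax5 had 0.0262, 0.0437 and 0.0754 FPKM in controls and 0.102, 0.102 and 0.318 in knockdown samples. Cd37, the highest of the list, had 3.10, 2.46 and 2.37 FPKM in controls and 4.80, 3.13 and 3.44 in knockdown samples. Its limma adjusted p was 0.189. Cd22 overlapped, with 0.656, 0.592 and 0.453 FPKM in controls and 1.79, 0.597 and 0.717 in knockdown samples. Cd79a, part of the B cell receptor complex and retained in plasma cells, had 1.43, 0.379 and 0.306 FPKM in controls and 2.86, 2.44 and 0.551 in knockdown samples. Of the genes for recombination and precursor B cells, 0 of 7 reached 1 FPKM, Rag1 being at most 0.0546 FPKM. Receptors and transporters of immunoglobulin had 0 of 6 tested genes called, and with so few genes this says little beside the 1.43%. Their summed level was 33.5 to 42.8 FPKM in controls and 59.0 to 86.0 in knockdown samples. Pigr, which carries IgA and IgM across epithelia, was at 0 in 5 samples.

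Other tissue also differed between the samples. The choroid plexus list, led by Ttr, summed to 50.5, 71.3 and 3074 FPKM in controls 1 to 3, and to 4647, 4330 and 1191 in knockdown samples 1 to 3. Knockdown samples 1 and 2 were highest both in this list and in immunoglobulin reads. Control sample 3 had the fewest immunoglobulin reads and more choroid plexus transcript than knockdown sample 3. Meningeal fibroblast markers summed to 17.7, 20.4 and 34.3 FPKM in controls 1 to 3, and to 32.3, 41.2 and 89.6 in knockdown samples 1 to 3. This sum overlapped between the groups and was highest in knockdown sample 3. Microglia markers summed to 262 to 351 FPKM in controls and 432 to 681 in knockdown samples. T and NK cell genes summed to 2.20 to 7.60 and 5.86 to 11.9 FPKM, with overlap. Red cell genes, as a sign of blood, summed to 3.61 to 6.69 and 3.81 to 5.25 FPKM, so the groups overlapped. The part of these tissues and cells in the immunoglobulin values was not tested.

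**Figure D5:**
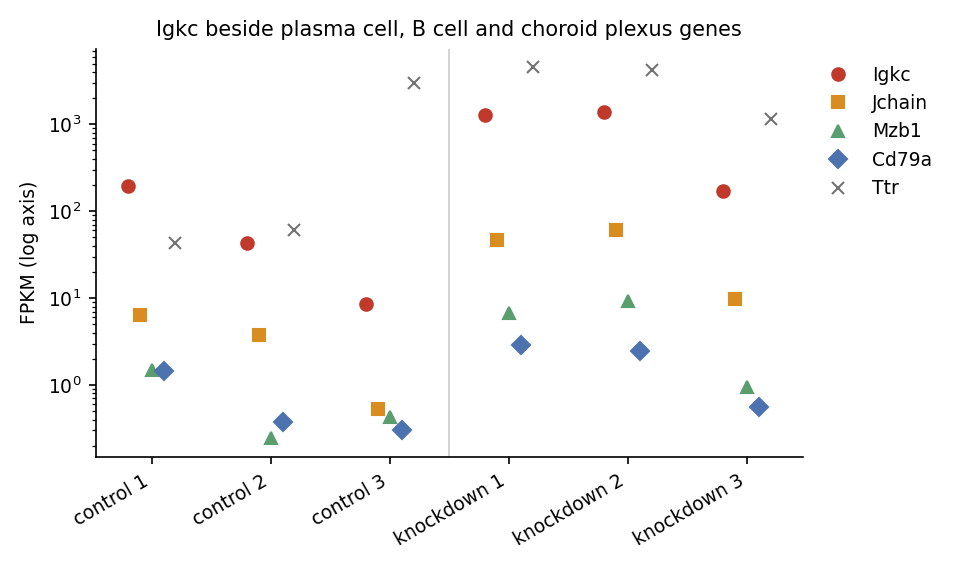
FPKM (log axis) of Igkc, the plasma cell genes Jchain and Mzb1, the B cell gene Cd79a and the choroid plexus gene Ttr in each sample, with points set side by side for legibility. Igkc, Jchain, Mzb1, Cd79a and Ttr are all highest in knockdown samples 1 and 2. Ttr is also high in control sample 3, where Igkc is at 8.58 FPKM.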

How the data were processed

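The authors deposited 1 table of FPKM values per gene for 6 libraries of hippocampal RNA. Per the labels' protocols, poly(A) RNA was enriched with oligo(dT) beads and copied with random primers, and no step that marks the strand is recorded. The build was mm10, per the submitters' processing notes. No aligner or counter is named by the sources used here. Reads were recovered by dividing FPKM times summed exon length (GENCODE M21) by the step found in each library, and 90.9% to 91.1% of values above 0 were whole within 0.01 reads. The log2(FPKM + 1) values of genes averaging 1 FPKM or more went into limma (version 3.58.1, R 4.3.3; two-sided, with variance trend), with Benjamini-Hochberg adjustment over 14012 genes and a threshold of 0.05. The fit was tested on simulated data, in which genes varied independently of each other and with a limited spread. Immunoglobulin rows vary together within a sample, so that test does not cover them. Shares have exact binomial 95% intervals, and intervals and read floors cover counting error only. A value of 0 allows up to 3 reads.

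Segments named were those leading a sample or locus, all constant genes and called rows; other rows were chosen after their values were seen. The rows and marker lists were chosen with earlier results of these data known. Alternatives were other pseudocounts, filters, scalings and variance settings, a threshold of 0.1, limma's voom on reads, a replicate block and each sample left out.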

Additional observations from a re-analysis of the deposited data

How the results depend on the processing

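The number of immunoglobulin rows called higher was 1 of 81, with 168 of 14012 genes. It was 3 of 81 with a pseudocount of 0.1, with 290 of 14012 genes, and 6 of 81 at an adjusted p under 0.1, with 983 of 14012 genes, a share near that of all genes. It was 2 with voom on recovered reads and 2 with voom on genes with at least 10 reads, an alternative chosen after seeing the data. It was 0 with no filter, after quantile normalization and without the variance trend, where 0 genes were called in all. Leaving out 1 sample gave 0 to 13 calls: 0 without any 1 control or knockdown sample 1, where at most 8 genes were called higher, 2 of 69 rows without knockdown sample 2, with 155 of 13984 genes, and 13 of 76 rows without knockdown sample 3, with 26 of 13966 genes, among the 13 Ighg3, Igha, Ighv1-39, Ighv1-81, Igkv16-104 and Iglv1. No setting called a row lower. With the replicate number as a block, 0 rows and 0 genes were called. Deviations of same-numbered samples correlated at 0.05, 0.04 and -0.01, so the numbers were not taken to pair the samples.

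Of 22 named rows tested, the direction changed for 3. The log2 difference of Ighv1-50 was 0.11, against -0.017 after quantile normalization, and leaving out 1 sample gave -0.95 (without control sample 3) to 2.12 (without control sample 1), below 0 also without control sample 2 and knockdown samples 1 and 2. That of Igkv14-111 ran from -0.62 (without knockdown sample 2) to 4.16, and that of Igkv3-2 from -1.48 to 0.69 (without control sample 1). The cause was not tested. The leading V segment held a median of 21.1% of V reads over the 6 samples. Within a locus by itself the median was 35.3% for heavy, 34.2% for kappa and 72.8% for lambda segments. For lambda the median number of segments holding 50% of reads was 1. Only 3 lambda V segments were present, against 77 heavy and 75 kappa, so the lambda share cannot be set beside the others. With segments summed by subgroup, or by FPKM, the median moved by less than the spread between samples. Control sample 3, with 111 V reads, limits what can be said of its leading segments.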
